A study of Arabidopsis thaliana with 12 samples.

Results

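Root explants that had been in mock solution for 6 h were compared with explants that had been in it for 1 h, in 4 of the 12 RNA-seq libraries of the study, 2 of each time, chosen by their labels. All explants came from Arabidopsis thaliana plants of the L.er cultivar that carry 35S:LFY-GR, in which the floral regulator LEAFY is joined to the steroid-binding part of a glucocorticoid receptor and is driven by a constitutive viral promoter, and none of these 4 libraries had received the steroid that releases the fusion protein into the nucleus. The mock 6 h group received mock solution, the ethanol solvent of the steroid, for the last 6 h, and the mock 1 h group for the last 1 h, of 5 days on callus inducing medium, which holds an auxin and a cytokinin. Both groups were therefore of the same age at harvest and had biological replicates A and B. Harvest was at ZT 6, that is 6 h into the light period, so that the 6 h solution was added near the start of that period. Hours in solution and the time of day at which the solution was added therefore cannot be told apart. Mock 24 h explants (2 libraries) and explants given 5 µM dexamethasone for 6 h or 1 h (4 libraries) were used to set values beside this comparison.

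When plant tissue is touched, wetted or wounded, calcium enters the cytosol, mitogen-activated protein kinases are activated, and a set of genes with short-lived transcripts is induced within minutes. Among them are the TOUCH genes, transcription factors of the WRKY, ERF and zinc finger families, and the enzymes that make jasmonate, the wound hormone. JAZ repressors, themselves induced by jasmonate, then damp that response. Heat shock proteins are chaperones that hold unfolding proteins in solution.

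The 4 libraries held 51894841 and 64567296 reads on genes at 6 h, and 46891400 and 49562495 at 1 h, so that the 6 h libraries were the deeper ones. Drawing all reads down to the smallest library left 1581 genes called, against 1504 at full depth. The root and callus markers were present, with summed levels of 815 and 896 reads per 1000000 (CPM, counts scaled to library size) at 6 h and 899 and 943 CPM at 1 h over 10 genes. Of these 10, only LBD29, a transcription factor of callus and lateral root formation, passed the test described below, beside 7.32% of all genes. It had 45.4 and 36.7 CPM at 6 h, against 90.8 and 75.5 CPM at 1 h. The shoot meristem genes WUS, STM and CLV3 had at most 5 reads each in any of the 4 libraries. Of the 5 green leaf markers, RBCS1A, the small subunit of Rubisco, had 17.0 and 21.6 CPM at 6 h, against 6.94 and 8.04 CPM at 1 h, and CAB1 had 12.7 and 18.24 CPM at 6 h, against 6.38 and 6.29 CPM at 1 h. Both passed the test. The summed level of the leaf markers was 45.5 and 59.1 CPM at 6 h and 25.5 and 27.2 CPM at 1 h, and RCA had 15.7 and 19.0 CPM at 6 h, against 12.03 and 12.7 CPM at 1 h, and did not pass (0.51, adjusted p = 0.0362). CAB2 and LHCB2.1 were below 0.3 CPM in all 4 libraries and were not tested. Reads shared between similar genes, such as the CAB genes, would not have been counted, so that their values are uncertain. The part of green tissue in the results was not tested. In RNA of whole explants, fewer cells of a type and less RNA per cell cannot be told apart.

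More genes were called lower than higher at 6 h, while over all tested genes 10564 values were positive and 9984 negative. Genes were called when edgeR's quasi-likelihood test gave a Benjamini-Hochberg adjusted p under 0.01, and a gene is said here to have risen or fallen at 6 h, against 1 h, only if it was called. Of 20548 genes tested, 1504 were called, which is 7.32% of them. Of all genes tested, 2.05% rose (422 genes) and 5.27% fell (1082 genes), while the median change over all tested genes was 0.012 on the log2 scale. A change of at least 1 on the log2 scale was seen in 193 of the risen and in 589 of the fallen genes. Libraries of the same time differed by a root mean square of 0.34 (1 h) and 0.43 (6 h) in log2 CPM, and libraries of different times by 0.57 to 0.67. The number of calls depended on single libraries. It was 4328 without mock 6 h replicate A and 3551 without mock 6 h replicate B, where the lone 6 h library is assumed to vary like the others, and it was 1115 without mock 1 h replicate B. None of the 1504 genes changed direction in these fits. Pairs that do not overlap were common. Of the 20548 genes tested, both 6 h libraries lay above both 1 h libraries in 5998 and below both in 6595. Where pairs are said below not to overlap, this alone does not set a gene apart.

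Where reads averaged 50 or more per library, the 8 genes with the largest falls were MSRB7 (AT4G21830), TAT3 (AT2G24850), XTH16 (AT3G23730), AGP22 (AT5G53250), EXLA2 (AT4G38400), UGT71C1 (AT2G29750), WOX12 (AT5G17810) and JAZ7 (AT2G34600). MSRB7, a methionine sulfoxide reductase that repairs oxidised proteins, had 1.33 and 1.21 CPM at 6 h, against 27.2 and 24.7 CPM at 1 h, a log2 fold change of -4.33 (SE 0.14, edgeR adjusted p = 8.71e-05). It was thus 20.1-fold lower at 6 h. WOX12, a homeobox gene that acts in the first steps of root formation from leaf explants, had 4.47 and 4.97 CPM at 6 h, against 58.0 and 58.3 CPM at 1 h (-3.59, SE 0.11, adjusted p = 8.71e-05). The pairs of WOX12 values lay far apart, with less than 1 CPM between replicates. XTH16, EXLA2 and AGP22 are genes of the cell wall. XTH16, which cuts and rejoins xyloglucan, had 0.811 and 0.708 CPM at 6 h, against 12.8 and 10.5 CPM at 1 h. EXLA2, of the expansin family, had 3.19 and 3.92 CPM at 6 h, against 46.4 and 50.2 CPM at 1 h, and AGP22, for an arabinogalactan peptide, had 0.0721 and 0.268 CPM at 6 h, against 2.48 and 2.52 CPM at 1 h. The 6 h libraries lay far below the 1 h libraries in each of these wall genes, which were chosen by their fall in these same libraries. UGT71C1, a glycosyltransferase of flavonoids and phenylpropanoids, had 5.42 and 6.96 CPM at 6 h, against 74.1 and 84.2 CPM at 1 h. TAT3, a tyrosine aminotransferase known as a jasmonate-induced gene, had 0.162 and 0.11 CPM at 6 h, against 2.33 and 2.44 CPM at 1 h.

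The 8 genes with the largest rises had between 3 and 133 reads in the 1 h libraries. HSP21, a small heat shock protein of plastids, had 6.38 and 7.08 CPM at 6 h, against 0.236 and 0.189 CPM at 1 h, a log2 fold change of 5.00 (SE 0.24, edgeR adjusted p = 0.000152), the largest at this read depth. UGT74E2, a glucosyltransferase of the auxin indole-3-butyric acid that is induced by hydrogen peroxide, had 36.4 and 39.6 CPM at 6 h, against 2.27 and 2.8 CPM at 1 h (3.93, SE 0.14, adjusted p = 8.71e-05). APX2, a cytosolic ascorbate peroxidase that removes hydrogen peroxide, had 1.48 and 1.75 CPM at 6 h, against 0.0642 and 0.147 CPM at 1 h. Its 1 h values stood for 3 and 7 reads. The other 5 are known by their annotation alone. AT5G55150, an F-box protein, had 1.84 and 2.25 CPM at 6 h, against 0.107 and 0.0631 CPM at 1 h. AT5G43450, a 2-oxoglutarate dependent oxygenase, had 3.44 and 2.82 CPM at 6 h, against 0.171 and 0.168 CPM at 1 h. AT2G04070, a MATE efflux protein, had 2.45 and 3.19 CPM at 6 h, against 0.15 and 0.168 CPM at 1 h. In each of these 8 genes both 6 h libraries lay above both 1 h libraries, which follows from their choice by the rise in these same libraries. AT5G24640, an uncharacterised protein, had 13.9 and 17.3 CPM at 6 h, against 0.899 and 0.947 CPM at 1 h, and AT1G16260, a wall-associated kinase, had 2.05 and 1.89 CPM at 6 h, against 0.171 and 0.0631 CPM at 1 h.

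**Figure D1:**
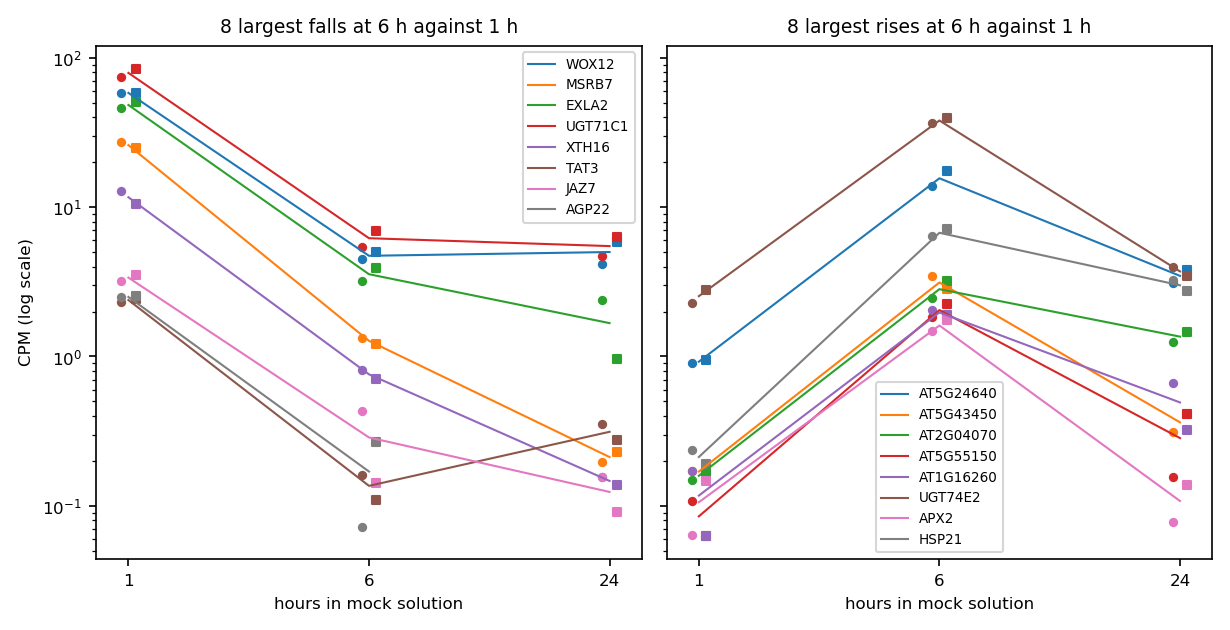
Levels of the 8 genes with the largest fall and the 8 with the largest rise at 6 h against 1 h, in CPM on a log scale, after 1, 6 and 24 h in mock solution. Circles are replicate A, squares replicate B, lines join the means, and values of 0 are not drawn (AGP22 at 24 h). All 8 fallen genes remained below their 1 h level at 24 h, with WOX12 at 4.14 and 5.87 CPM, while all 8 risen genes were lower at 24 h than at 6 h. Some risen genes stayed above their 1 h level, such as HSP21 with 3.24 and 2.75 CPM at 24 h. Others did not, such as APX2 with 0.0781 and 0.137 CPM at 24 h.

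The touch and calcium genes were the list with the lowest median. Of its 13 members, all tested, 11 fell and none rose, beside 5.27% of all genes that fell, with a median log2 fold change of -1.66. TCH2, a calmodulin-like protein and one of the first touch-induced genes described, had 32.9 and 35.2 CPM at 6 h, against 141 and 147 CPM at 1 h (-2.06, SE 0.093, adjusted p = 0.00015). TCH4, a xyloglucan endotransglucosylase, had 106 and 97.1 CPM at 6 h, against 415 and 381 CPM at 1 h (-1.94, SE 0.12, adjusted p = 0.000276). CAF1a, a deadenylase that shortens the tails of messenger RNAs, had 5.91 and 6.81 CPM at 6 h, against 38.0 and 44.4 CPM at 1 h (-2.67, SE 0.13, adjusted p = 0.000152). The groups were well apart in each of the 3 genes. PHI-1, first found as a phosphate-induced gene of tobacco cells, had 40.2 and 57.6 CPM at 6 h, against 251 and 300.1 CPM at 1 h. MPK3, a kinase at the end of the stress-activated cascade, had 89.1 and 86.4 CPM at 6 h, against 239.7 and 245 CPM at 1 h (-1.44, SE 0.095, adjusted p = 0.000346), and its upstream kinase MKK9 had 63.5 and 84.8 CPM at 6 h, against 134 and 149.9 CPM at 1 h. RBOHD, the NADPH oxidase that makes the apoplastic oxidative burst, had 293 and 372 CPM at 6 h, against 669.7 and 776 CPM at 1 h. All these groups were apart without overlap. The 2 members that did not pass were CML38 (-0.73, adjusted p = 0.185) and AT1G76640, known as CML39 (-1.66, adjusted p = 0.0727). CML38 had 73.1 and 36.3 CPM at 6 h, against 113 and 71.2 CPM at 1 h, so that its groups overlapped.

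Many transcription factors of the rapid stress response also fell. Of 31 factors, 29 were tested, 16 fell and none rose (all genes, 5.27% fell), with a median of -1.08, and the single tested member with a positive value was DREB2A (0.18, adjusted p = 0.32). WRKY18 and WRKY40, related repressors of the defence response, had 74.4 and 72.6 CPM and 12.7 and 10.9 CPM at 6 h, against 238 and 243 CPM and 41.0 and 38.7 CPM at 1 h. Their log2 fold changes were -1.68 (SE 0.094, adjusted p = 0.000238) and -1.73 (SE 0.11, adjusted p = 0.000346). For both genes the replicates of a time lay close together. SZF1, a tandem zinc finger protein induced by salt and chitin, had 34.3 and 35.7 CPM at 6 h, against 151 and 150.03 CPM at 1 h (-2.08, SE 0.091, adjusted p = 0.000143), whereas its relative CZF1 had 155 and 176 CPM at 6 h, against 207 and 207 CPM at 1 h, and did not pass (adjusted p = 0.101). STZ, also called ZAT10, a zinc finger repressor, had 33.5 and 45.0 CPM at 6 h, against 141 and 169 CPM at 1 h, while RHL41, also called ZAT12, had 62.8 and 71.4 CPM at 6 h, against 73.9 and 77.0 CPM at 1 h, and did not pass (-0.14, adjusted p = 0.347). The whole range of the list lay between CBF1 and DREB2A. CBF1 had 1 and 6 reads at 6 h, against 18 and 38 reads at 1 h, and did not pass (-3.27, adjusted p = 0.0231). Its neighbour CBF2, a cold response activator, had 0.541 and 0.645 CPM at 6 h, against 2.78 and 3.26 CPM at 1 h, and fell (-2.31, adjusted p = 0.00178). The CBF genes are near copies of each other, so that reads shared between them would not have been counted and their values are uncertain.

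Among the ERF members of this list the falls were unequal. ERF13 had 0.703 and 0.74 CPM at 6 h, against 6.53 and 6.92 CPM at 1 h (-3.19, SE 0.19, adjusted p = 0.000271). ERF5, an activator that responds to chitin, had 33.2 and 36.0 CPM at 6 h, against 108 and 114 CPM at 1 h (-1.66, SE 0.092, adjusted p = 0.000231). RRTF1, also called ERF109, which links wounding to auxin synthesis in roots, had 0.883 and 0.724 CPM at 6 h, against 2.72 and 2.46 CPM at 1 h (-1.66, SE 0.24, adjusted p = 0.00561), and was not called when libraries were scaled by their totals alone (adjusted p = 0.0113). By contrast ERF4, a repressor, had 122 and 151 CPM at 6 h, against 173 and 181 CPM at 1 h, and did not pass (adjusted p = 0.0953). WRKY6, of another family, had 199 and 248 CPM at 6 h, against 213 and 243 CPM at 1 h, with overlapping groups and no call (-0.0018, adjusted p = 0.995). The difference between members that passed and those that did not was not tested. By symbol, in sets formed after the values were seen, 8 of 22 tested ERF genes fell and 1 rose. Of 58 tested WRKY genes, 10 fell and 2 rose, with a median of -0.0067. Over all genes 5.27% fell and 2.05% rose.

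Jasmonate synthesis genes fell at several steps of the pathway. The list had 25 members, 20 of which were tested, and 13 fell and 1 rose, beside 5.27% and 2.05% of all genes, with a median of -1.24. LOX3 and LOX4 oxidise linolenic acid at the first step. LOX3 had 1.78 and 2.11 CPM at 6 h, against 14.4 and 14.6 CPM at 1 h (-2.87, SE 0.15, adjusted p = 0.000201), and LOX4 had 13.5 and 15.4 CPM at 6 h, against 32.4 and 37.5 CPM at 1 h. Allene oxide synthase, AOS, had 18.5 and 22.6 CPM at 6 h, against 46.9 and 51.4 CPM at 1 h, and allene oxide cyclase 3, AOC3, had 19.9 and 20.4 CPM at 6 h, against 143 and 140.0 CPM at 1 h (-2.79, SE 0.092, adjusted p = 8.71e-05). Each of these enzymes had its higher pair at 1 h. AOC4, another allene oxide cyclase, had 96.9 and 112 CPM at 6 h, against 147 and 147 CPM at 1 h. It did not pass (-0.47, adjusted p = 0.0257), but was called by DESeq2. OPR3, the reductase that acts in peroxisomes, had 35.3 and 43.3 CPM at 6 h, against 135 and 150.1 CPM at 1 h. JAR1, which joins jasmonate to isoleucine to give the active hormone, had 332 and 375 CPM at 6 h, against 305 and 328 CPM at 1 h, and did not pass (0.19, adjusted p = 0.302).

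Most JAZ repressors fell as well. JAZ10, whose transcript is a common readout of jasmonate signalling, had 8.67 and 8.61 CPM at 6 h, against 63.3 and 62.8 CPM at 1 h (-2.84, SE 0.092, adjusted p = 8.71e-05). JAZ5 had 3.86 and 4.3 CPM at 6 h, against 19.5 and 20.8 CPM at 1 h (-2.28, SE 0.13, adjusted p = 0.000231), and JAZ1 had 158 and 174 CPM at 6 h, against 401 and 457 CPM at 1 h. No 6 h library reached a 1 h library in these genes. JAZ7 had 0.433 and 0.142 CPM at 6 h, against 3.21 and 3.53 CPM at 1 h, which was the largest fall of the list (-3.55, SE 0.44, adjusted p = 0.00306). JAZ12 had 48.5 and 59.9 CPM at 6 h, against 54.4 and 59.5 CPM at 1 h, and did not pass, nor did TIFY7 (JAZ9) with a value of 0.41. The catabolic P450 enzymes of the hormone moved in opposite directions. CYP94C1 had 3.03 and 3.65 CPM at 6 h, against 15.9 and 15.5 CPM at 1 h, and fell, whereas CYP94B3 had 70.7 and 82.3 CPM at 6 h, against 35.5 and 35.8 CPM at 1 h, and was the member that rose (1.13, SE 0.10, adjusted p = 0.00101). MYC2, the main activator of the response, is listed at 0 reads in all 4 libraries, so nothing can be said of it. LOX2, AOC1, AOC2 and VSP2 had too few reads to be tested. Here too, reads shared between similar genes, such as AOC1 and AOC2, would not have been counted.

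**Figure D2:**
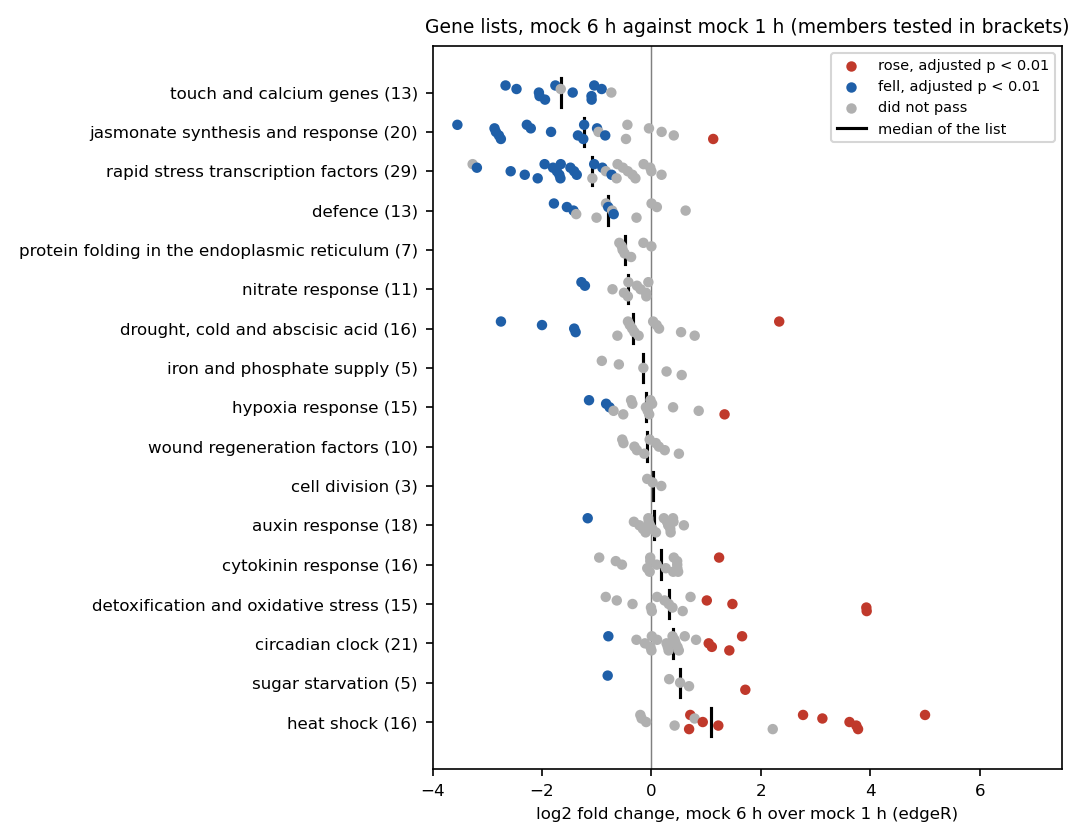
Log2 fold changes of the tested members of 17 gene lists, mock 6 h over mock 1 h. Each point is a gene, coloured by whether it rose, fell or did not pass at an adjusted p under 0.01, and the bar is the median of the list, from -1.66 for touch and calcium genes to 1.08 for heat shock. The fallen members gather in the touch, jasmonate and rapid stress lists and the risen members in the heat shock list.

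Promoters of fallen touch genes are shown for one short sequence, CGCGTT, known as the rapid stress response element or CGCG box, to which calmodulin-binding CAMTA factors bind. The 250 bases before the annotated gene start are given in the direction of transcription (RefSeq TAIR10.1), with matches on either strand in capitals. They were chosen after the matches had been seen.
TCH2 (chr5:14999620-14999869, minus strand): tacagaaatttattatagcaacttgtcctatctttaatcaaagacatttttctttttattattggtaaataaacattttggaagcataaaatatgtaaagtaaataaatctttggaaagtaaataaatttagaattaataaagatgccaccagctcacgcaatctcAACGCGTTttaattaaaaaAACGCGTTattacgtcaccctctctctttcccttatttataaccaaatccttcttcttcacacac
PHI-1 (chr1:12851733-12851982, plus strand): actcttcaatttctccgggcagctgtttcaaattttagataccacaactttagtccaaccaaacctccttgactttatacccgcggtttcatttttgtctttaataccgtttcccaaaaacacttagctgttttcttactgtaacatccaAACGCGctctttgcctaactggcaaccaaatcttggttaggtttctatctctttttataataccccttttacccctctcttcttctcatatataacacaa
TCH2 held 4 matches, in 2 runs in which the sequence and its complement overlap, and PHI-1 held 1. Among the promoters of genes that fell, 85 of 1073 (7.92%) held the CGCG box, beside 6 of 412 (1.46%) of genes that rose, 2.86% of all tested genes and 2.59% of all 27443 nuclear protein-coding genes. The W-box of WRKY factors (TTGACC or TTGACT) was in 34.5% of the promoters of fallen genes, in 30.3% of those of risen genes and in 28.7% of those of tested genes. In the promoters of most of the fallen members of the touch and jasmonate lists no CGCG box was found, since 2 of 11 held it in the touch list and 2 of 13 in the jasmonate list. A match is a string of letters and not a measured binding site.

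The dehydrins ERD10 and COR47 fell while the galactinol synthase GolS1 rose. In the list of drought, cold and abscisic acid genes, 16 of 20 members were tested, 4 fell and 1 rose, beside 5.27% and 2.05% of all genes, with a median of -0.33. ERD10, a dehydrin that protects membranes and proteins during water loss, had 42.0 and 46.2 CPM at 6 h, against 177 and 182 CPM at 1 h (-2.0001, SE 0.098, adjusted p = 0.000175). COR47, another dehydrin, had 60.0 and 60.6 CPM at 6 h, against 168 and 159 CPM at 1 h (-1.41, SE 0.094, adjusted p = 0.000346). LTI78, also called RD29A, a standard marker of osmotic and cold stress, had 0.451 and 0.614 CPM at 6 h, against 3.21 and 4.14 CPM at 1 h (-2.75, SE 0.27, adjusted p = 0.00136). Again the pairs did not overlap. NCED3, the rate-limiting enzyme of abscisic acid synthesis under stress, had 1.28 and 1.18 CPM at 6 h, against 2.96 and 3.6 CPM at 1 h, and fell as well. The phosphatases of abscisic acid signalling did not pass. ABI1 had 42.9 and 40.4 CPM at 6 h, against 54.5 and 50.8 CPM at 1 h, and ABI2 had 6.9 and 6.45 CPM at 6 h, against 7.99 and 8.02 CPM at 1 h. GolS1, which makes galactinol for the osmoprotectant raffinose and is a target of heat shock factors, had 20.9 and 24.2 CPM at 6 h, against 4.48 and 4.63 CPM at 1 h (2.33, SE 0.13, adjusted p = 0.000238).

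Among 18 defence genes 13 were tested, 5 fell and none rose, beside 5.27% and 2.05% of all genes (median -0.79). PAD4 and EDS1 encode lipase-like partners in immune signalling. PAD4 had 16.1 and 16.2 CPM at 6 h, against 46.4 and 49.6 CPM at 1 h (-1.55, SE 0.089, adjusted p = 0.000263), and EDS1 had 22.3 and 24.2 CPM at 6 h, against 37.3 and 39.2 CPM at 1 h. EDS1 was no longer called without mock 1 h replicate B (adjusted p = 0.0153). The replicates of both genes were close. PROPEP1, the precursor of a wound-released danger peptide, had 3.93 and 4.53 CPM at 6 h, against 14.7 and 15.0 CPM at 1 h (-1.78, SE 0.13, adjusted p = 0.00052). CYP81F2 and CYP79B2 make indole glucosinolates. CYP81F2 had 25.8 and 29.3 CPM at 6 h, against 72.3 and 78.5 CPM at 1 h, and CYP79B2 had 30.2 and 36.5 CPM at 6 h, against 57.4 and 60.1 CPM at 1 h. FRK1, a marker of flagellin response, did not pass (0.62, adjusted p = 0.0572), and the salicylic acid markers PR1, BGL2 (PR2) and PR5 had too few reads to be tested.

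**Figure D3:**
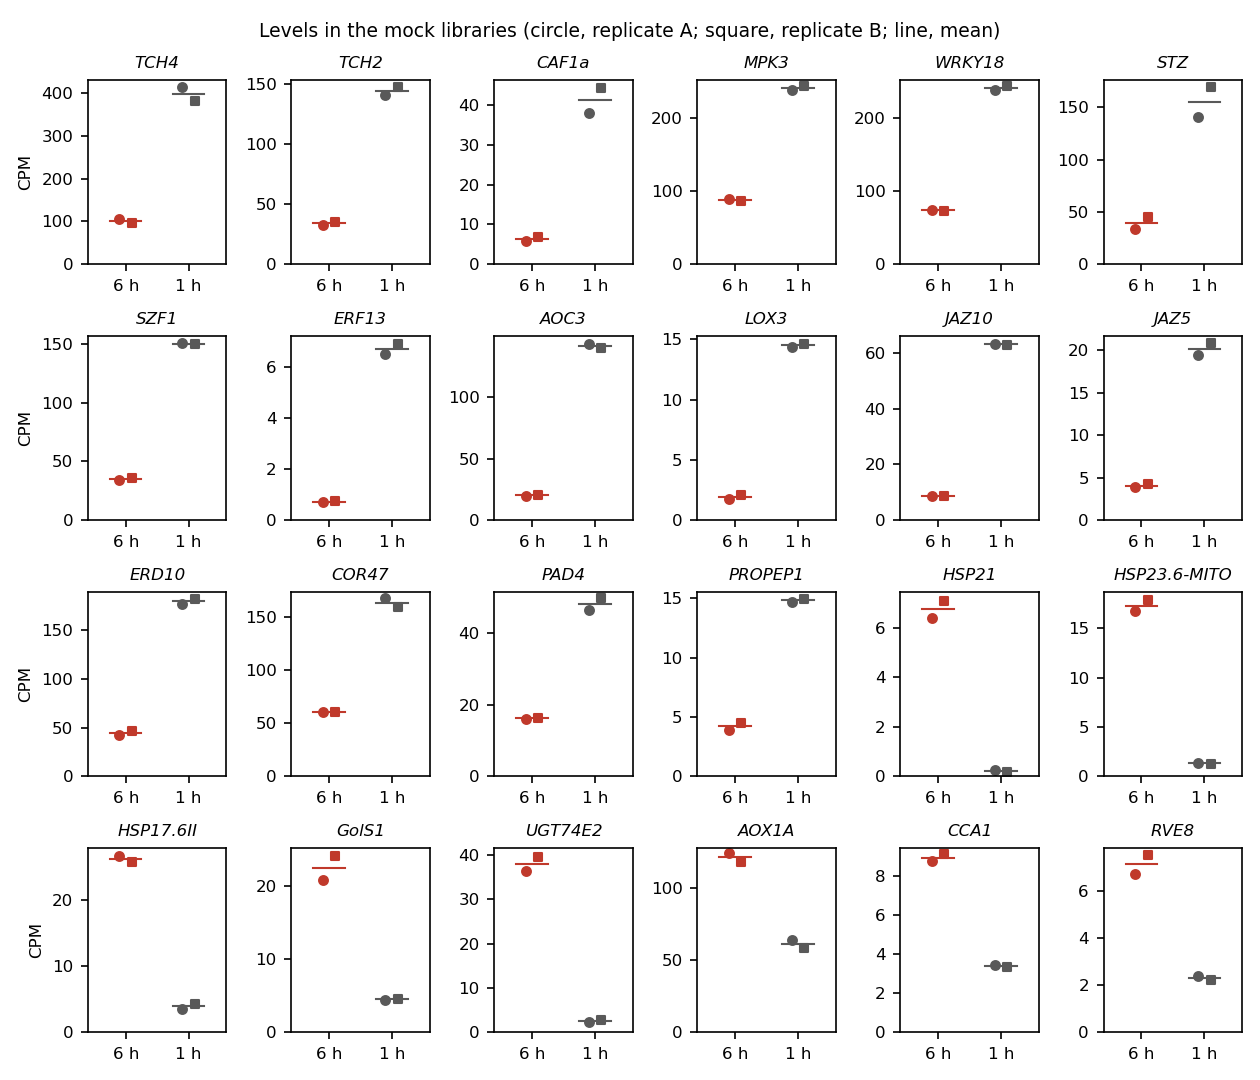
Levels in CPM of 24 named genes in the 4 mock libraries, with the 6 h libraries left of the 1 h libraries. Circles are replicate A, squares replicate B and lines the means. The first 16 genes, such as TCH4 and JAZ10, are lower at 6 h, and the last 8, such as HSP21 and CCA1, are higher at 6 h. All 24 were called, and the pairs overlap in no panel. Of all 20548 genes tested, both 6 h libraries lay above both 1 h libraries in 5998 and below both in 6595.

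Of 16 heat shock genes, all tested, 10 rose and none fell, beside 2.05% of all genes that rose, and the median was 1.08. HSP23.6-MITO, a small heat shock protein of mitochondria, had 16.8 and 17.8 CPM at 6 h, against 1.35 and 1.28 CPM at 1 h (3.74, SE 0.14, adjusted p = 0.000101). ATHSP22.0, of the endoplasmic reticulum, had 8.76 and 7.85 CPM at 6 h, against 0.685 and 0.547 CPM at 1 h (3.77, SE 0.21, adjusted p = 0.000229). HSP17.6II, a cytosolic class II protein, had 26.5 and 25.7 CPM at 6 h, against 3.58 and 4.23 CPM at 1 h (2.77, SE 0.13, adjusted p = 0.00015), and HSP18.2, of class I, had 4.49 and 4.53 CPM at 6 h, against 0.45 and 0.295 CPM at 1 h. Plastid, mitochondrial, reticulum and cytosolic forms were thus among the risen genes. HSP17.4, another small heat shock protein, had 3.64 and 2.41 CPM at 6 h, against 0.878 and 0.442 CPM at 1 h, and did not pass (2.22, adjusted p = 0.0104). Of the large chaperones in the list, HSP90.1 and HSP101 rose, while HSP70 (HSP70-4) did not pass (0.42, adjusted p = 0.045). HSP70 had 248 and 287 CPM at 6 h, against 195 and 212 CPM at 1 h, and was called by DESeq2. HSP90.1 had 119 and 119.9 CPM at 6 h, against 50.9 and 53.5 CPM at 1 h (1.22), and HSP101, which pulls aggregated proteins apart, had 95.2 and 108 CPM at 6 h, against 49.6 and 58.6 CPM at 1 h (0.94). Over all 23 tested genes with an HSP symbol, a set formed after the values were seen, 9 rose and 1, Hsp70-2, fell (-1.17), and the median was 0.079.

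The heat shock transcription factors of the list did not pass, and other factors of that family were not examined. HSFB2A had 16.7 and 16.4 CPM at 6 h, against 19.5 and 18.7 CPM at 1 h (-0.18, adjusted p = 0.258). HSFA2, the factor that prolongs the heat response, had 9.62 and 7.55 CPM at 6 h, against 5.48 and 4.63 CPM at 1 h (0.79, adjusted p = 0.0264), and it was called by DESeq2. HSFA7A had 21.1 and 20.1 CPM at 6 h, against 24.7 and 23.7 CPM at 1 h, and HSF4 (HSFB1) had 179 and 192 CPM at 6 h, against 197 and 206 CPM at 1 h. The coactivator MBF1C had 53.3 and 59.0 CPM at 6 h, against 35.0 and 36.0 CPM at 1 h, and rose (0.69, SE 0.091, adjusted p = 0.00405). None of 7 genes for protein folding in the endoplasmic reticulum passed in edgeR, beside 7.32% of all genes, and all 7 values were negative. Of the 7, 5 were at an unadjusted p under 0.05 and 4 were called by DESeq2, beside 7111 of 20548 and 2761 of 19965 genes. BIP2, the lumenal HSP70, had 196 and 239 CPM at 6 h, against 304 and 362 CPM at 1 h (-0.59, adjusted p = 0.031). BIP1 (-0.54), the calreticulin CRT1a (-0.53) and the calnexin CNX1 (-0.49) had similar values.

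The promoter of GolS1 is shown because it carries the heat shock element, a run of 3 alternating GAA and TTC units spaced by any pair of bases, searched on both strands and shown in capitals.
GolS1 (chr2:19370479-19370728, minus strand): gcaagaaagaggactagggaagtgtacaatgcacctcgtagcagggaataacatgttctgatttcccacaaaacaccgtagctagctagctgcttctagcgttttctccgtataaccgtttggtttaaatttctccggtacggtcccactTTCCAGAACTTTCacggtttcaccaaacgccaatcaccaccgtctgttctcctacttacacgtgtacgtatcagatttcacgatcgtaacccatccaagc
That element was rare, in 0.386% of all promoters, in 3 of 412 promoters of risen genes and in 7 of 1073 of fallen genes. Of the 10 risen members of the heat shock list, 1 held it within these 250 bases.

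Genes for oxidative stress and detoxification rose in part. Of 15 members 4 rose and none fell, beside 2.05% and 5.27% of all genes (median 0.32). The 4 were UGT74E2 and APX2, given above, and CYP81D8 and AOX1A. AOX1A, the alternative oxidase that relieves the mitochondrial electron chain, had 124 and 118 CPM at 6 h, against 64.2 and 58.2 CPM at 1 h (1.01, SE 0.1, adjusted p = 0.00138). CYP81D8, a P450 induced by many toxic compounds, had 148 and 188 CPM at 6 h, against 58.3 and 64.4 CPM at 1 h (1.48, SE 0.14, adjusted p = 0.0011). Glutathione transferases showed no common direction. GSTU19 had 998 and 854 CPM at 6 h, against 627 and 522 CPM at 1 h, GSTF8 had 368 and 456 CPM at 6 h, against 701 and 796 CPM at 1 h, and neither passed (adjusted p = 0.022 and 0.0111). GSTF7 had 251 and 262 CPM at 6 h, against 263 and 257 CPM at 1 h (0.0064), with overlapping groups.

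The clock genes CCA1, RVE8, PRR9 and AT3G54500 rose, in tissue that was all taken at the same hour of the day. Of 21 clock genes 4 rose and 1 fell (all genes, 2.05% and 5.27%), with a median of 0.39. CCA1, a MYB repressor that peaks at dawn, had 8.76 and 9.13 CPM at 6 h, against 3.45 and 3.35 CPM at 1 h (1.42, SE 0.14, adjusted p = 0.00143). RVE8, its relative that activates afternoon genes, had 6.72 and 7.54 CPM at 6 h, against 2.4 and 2.21 CPM at 1 h (1.66, SE 0.17, adjusted p = 0.00148). PRR9, the first of the pseudo-response regulators to peak in the day, had 10.7 and 9.49 CPM at 6 h, against 4.67 and 4.9 CPM at 1 h (1.103, SE 0.14, adjusted p = 0.00335), and AT3G54500 (LNK2), a coactivator of RVE8, had 42.2 and 40.7 CPM at 6 h, against 18.6 and 22.4 CPM at 1 h. No other gene of the list rose. BOA, an evening gene, had 12.5 and 13.0 CPM at 6 h, against 22.8 and 21.9 CPM at 1 h, and was the member that fell. LHY, the partner of CCA1, had 9.5 and 9.33 CPM at 6 h, against 6.0 and 6.59 CPM at 1 h, with pairs that did not overlap, but it did not pass (0.61, adjusted p = 0.0213). TOC1, the evening repressor of CCA1, had 164 and 165 CPM at 6 h, against 167 and 172 CPM at 1 h (-0.019, adjusted p = 0.91), and its sign turned when libraries were scaled by their totals alone. No direction is given for TOC1. PRR5 had 47.7 and 53.1 CPM at 6 h, against 33.7 and 40.1 CPM at 1 h, and did not pass (0.48, adjusted p = 0.0279). GI, which peaks late in the day, had 137 and 157 CPM at 6 h, against 143 and 157 CPM at 1 h, with overlapping groups.

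Promoters of the risen clock genes with a G-box (CACGTG, in capitals), a hexamer bound by bHLH and bZIP factors and the palindromic core shared with light-responsive promoters, are given here.
CCA1 (chr2:19245341-19245590, plus strand): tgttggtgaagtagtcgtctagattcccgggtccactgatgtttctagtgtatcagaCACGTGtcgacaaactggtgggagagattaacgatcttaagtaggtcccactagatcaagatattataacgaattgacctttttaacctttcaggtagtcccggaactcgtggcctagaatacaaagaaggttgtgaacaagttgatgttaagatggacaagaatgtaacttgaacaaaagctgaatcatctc
PRR9 (chr2:19232357-19232606, plus strand): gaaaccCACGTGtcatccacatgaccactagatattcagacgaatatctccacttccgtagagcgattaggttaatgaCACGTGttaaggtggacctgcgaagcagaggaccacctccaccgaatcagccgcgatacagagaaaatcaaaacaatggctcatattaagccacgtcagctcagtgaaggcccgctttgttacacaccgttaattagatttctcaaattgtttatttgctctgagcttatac
CCA1 held 1 match and PRR9 held 2, and no match was found in these windows of RVE8 and AT3G54500. The G-box was not limited to risen clock genes, since BOA, which fell, and LHY, which did not pass, held 1 each. The G-box was in 7.77% of the promoters of risen genes, in 9.04% of those of fallen genes and in 7.22% of those of tested genes. For the evening element AAAATATCT the shares were 3.16%, 3.08% and 2.46%.

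Among genes of low oxygen, the direction was mixed. Of 15 members 1 rose and 3 fell, beside 2.05% and 5.27% of all genes (median -0.10). ERF71 (HRE2), an activator of hypoxia genes, had 64.4 and 66.4 CPM at 6 h, against 27.2 and 25.5 CPM at 1 h (1.34, SE 0.09, adjusted p = 0.000362), while its relative ERF73 (HRE1) had 33.9 and 35.6 CPM at 6 h, against 60.3 and 59.9 CPM at 1 h (-0.76, SE 0.085, adjusted p = 0.0021). AT3G10040 (HRA1), a repressor of the response, fell too, with 146 and 165 CPM at 6 h, against 269 and 293 CPM at 1 h, but was not called without mock 1 h replicate B (adjusted p = 0.0205). SRO5 had 37.9 and 40.0 CPM at 6 h, against 87.8 and 87.2 CPM at 1 h, and fell (-1.14). Risen and fallen members were thus found among regulators of the same response. ADH1, the alcohol dehydrogenase that ferments when oxygen is short, had 1661 and 2006 CPM at 6 h, against 984 and 1070.5 CPM at 1 h. Its value of 0.86 lay just outside the threshold (SE 0.15, adjusted p = 0.011), and it was called by DESeq2 (adjusted p = 6.66e-10). PDC2, pyruvate decarboxylase, had 173 and 199 CPM at 6 h, against 199 and 208 CPM at 1 h, and did not pass (adjusted p = 0.566).

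Of the 5 genes of sugar starvation, all tested, 1 rose and 1 fell, beside 2.05% and 5.27% of all genes. SEN1, a dark- and starvation-induced gene, had 15.2 and 16.1 CPM at 6 h, against 4.8 and 4.9 CPM at 1 h, and rose (1.71, SE 0.12, adjusted p = 0.000418), whereas DIN10, of the same list, had 288 and 345 CPM at 6 h, against 543 and 579 CPM at 1 h, and fell (-0.80). DIN10 was not called without mock 1 h replicate A (adjusted p = 0.0205) or without mock 1 h replicate B (adjusted p = 0.0537). The starvation genes DYL1 (0.69) and ASN1 (0.52), an asparagine synthetase, did not pass. The list thus held calls in both directions. In the nitrate list 2 of 11 tested members fell, beside 5.27% of all genes, none rose, and all 11 values were negative. NRT2:1, the high-affinity nitrate transporter of roots, had 3.8 and 5.02 CPM at 6 h, against 9.94 and 11.9 CPM at 1 h (-1.28, SE 0.18, adjusted p = 0.00492), and LBD38, a repressor induced by nitrate, had 15.9 and 22.3 CPM at 6 h, against 41.2 and 49.4 CPM at 1 h. NIA1, nitrate reductase, had 952 and 1227 CPM at 6 h, against 1699 and 1937 CPM at 1 h, and did not pass (-0.71, adjusted p = 0.0299), nor did LBD37 (-0.50). None of 5 tested genes of iron and phosphate supply passed, beside 7.32% of all genes, and in so short a list this is near that share. Of the 5, 2 were at an unadjusted p under 0.05, beside 7111 of 20548 genes, and 1, SPX1, was called by DESeq2. SPX1, a phosphate sensor, had 77.1 and 56.4 CPM at 6 h, against 142 and 113 CPM at 1 h (-0.91, adjusted p = 0.0168), and the other members named by the rule, FRO2, IRT1 and SPX3, had values of 0.55, -0.60 and -0.15.

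Of the genes for regeneration, hormone response and cell division, GH3.1 fell and CKX7 rose. None of 10 wound regeneration factors passed in edgeR, with 3 at an unadjusted p under 0.05 and 1 called by DESeq2 (median -0.082). Over all genes 7.32% were called in edgeR, 7111 of 20548 were at an unadjusted p under 0.05, and 2761 of 19965 were called by DESeq2. The absence of calls among these 10 factors is thus near the share of all genes. RAP2.4 (WIND1), which drives callus formation at wounds, had 281 and 324 CPM at 6 h, against 233 and 288 CPM at 1 h (0.24, adjusted p = 0.262). AIL7 (PLT7), an AP2 factor that primes callus for regeneration, had 80.4 and 82.7 CPM at 6 h, against 55.4 and 62.0 CPM at 1 h, and was nearest to the threshold (0.50, adjusted p = 0.0124). AIL6 (PLT3) had 701 and 803 CPM at 6 h, against 862 and 981 CPM at 1 h, with pairs that did not overlap and a value of -0.27 (adjusted p = 0.216). AIL5 (-0.31) and AT5G61890 (ERF114, -0.53) did not pass either. The values of this list lay between -0.53 and 0.50 on the log2 scale. In the auxin list 1 of 18 tested members was called, a share near the 7.32% of all genes, namely GH3.1, which conjugates auxin to amino acids, with 179.7 and 244 CPM at 6 h, against 443 and 526 CPM at 1 h (-1.17, SE 0.17, adjusted p = 0.00563). IAA19, an auxin-induced repressor, had 122 and 150.2 CPM at 6 h, against 157 and 165 CPM at 1 h, and did not pass (adjusted p = 0.256), and neither did IAA5 (0.59), IAA11 (0.31) and IAA14 (0.40). In the cytokinin list 1 of 16 was called, also near the share of all genes, the cytokinin oxidase CKX7, with 4.22 and 5.21 CPM at 6 h, against 2.1 and 1.98 CPM at 1 h, and it was not called without mock 1 h replicate B (adjusted p = 0.022). ARR6, CKX3 and CKX5 had values of 0.49, 0.40 and 0.47 and did not pass. RR5 (ARR5), a response regulator used as a cytokinin reporter, had 25.3 and 12.5 CPM at 6 h, against 19.5 and 12.5 CPM at 1 h, so that replicates differed more than the groups. None of 3 division genes passed, none was at an unadjusted p under 0.05 and none was called by DESeq2. That list is too short to be set apart from the share of all genes. CYCB1;1, a cyclin of mitosis, had 23.4 and 24.4 CPM at 6 h, against 24.0 and 24.0 CPM at 1 h, and the values of CYCD3;1 and SYP111 were 0.18 and -0.078.

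Levels at 24 h were set beside these values to see which time stood apart. In 12 of 13 touch genes, 24 of 29 rapid stress factors and 15 of 20 jasmonate genes, both 1 h libraries lay above all 4 libraries of 6 h and 24 h, which was so in 22.2% of all genes tested. In 13 of 16 heat shock genes both 6 h libraries lay above all 4 libraries of 1 h and 24 h, beside 13.1% of all genes. These patterns were not particular to those lists. The 1 h libraries also stood highest in 8 of 15 hypoxia, 7 of 13 defence and 6 of 11 nitrate genes, but in 1 of 18 auxin genes. The 6 h libraries stood highest in 8 of 21 clock and 6 of 15 detoxification genes, but in none of 16 cytokinin genes. Some genes were lower still at 24 h. TCH4 had 415 and 381 CPM at 1 h, 106 and 97.1 CPM at 6 h and 8.2 and 9.53 CPM at 24 h, and its change between 6 h and 24 h was -3.54 (adjusted p = 2.05e-06). WRKY40 had 41.0 and 38.7 CPM at 1 h, 12.7 and 10.9 CPM at 6 h and 5.2 and 5.36 CPM at 24 h (-1.18 after 6 h, adjusted p = 0.00125). In other genes the change after 6 h did not pass. TCH2 had 26.6 and 28.0 CPM at 24 h (-0.33 after 6 h, adjusted p = 0.0409), COR47 had 60.9 and 51.6 CPM (-0.11, adjusted p = 0.47) and JAZ10 had 12.3 and 10.4 CPM (0.38, adjusted p = 0.109). HSP17.6II and UGT74E2 were lower again at 24 h. HSP17.6II had 3.58 and 4.23 CPM at 1 h, 26.5 and 25.7 CPM at 6 h and 5.7 and 6.87 CPM at 24 h (-2.07 after 6 h, adjusted p = 2e-05), and UGT74E2 had 3.99 and 3.44 CPM at 24 h (-3.36, adjusted p = 2.05e-06). ADH1 was lowest at 24 h, with 493 and 475 CPM. CCA1 had 9.45 and 13.6 CPM at 24 h and AT3G54500 (LNK2) had 48.7 and 46.8 CPM, and neither passed between 6 h and 24 h (adjusted p = 0.208 and 0.165). GH3.1 had 418 and 380.1 CPM at 24 h, above both 6 h libraries (0.90, adjusted p = 0.00151). The comparisons of 24 h with 6 h and of 6 h with 1 h share the 6 h libraries, and that of 24 h with 1 h shares libraries with both. These changes are therefore not independent of each other, and the 24 h libraries held fewer reads, 25879110 and 21484341.

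The same interval was measured in explants given dexamethasone, in 4 libraries that share none with the mock comparison. There 1.52% of 20793 tested genes rose and 3.71% fell. Of the 422 genes that rose in mock, 420 had the same sign with dexamethasone and 194 were called in the same direction. Of the 1082 that fell in mock, 1081 were tested with dexamethasone, 1068 had the same sign and 642 were called. The directions of these called genes were thus nearly the same in both sets of libraries. The share of same signs over all tested genes is not given here. The median changes were 0.94 in mock and 0.87 with dexamethasone for the risen genes, and -1.06 in mock and -1.04 with dexamethasone for the fallen ones. Of the 58 named genes called in mock, 35 of 37 fallen and 18 of 21 risen ones were called in the same direction with dexamethasone. Most were named for a large change or a small p in mock, which favours high counts. JAZ10 had 13.9 and 15.0 CPM at dexamethasone 6 h, against 72.5 and 69.3 CPM at dexamethasone 1 h (-2.27, adjusted p = 0.00201). TCH4 had 115 and 115 CPM at dexamethasone 6 h, against 426 and 364 CPM at dexamethasone 1 h (-1.76), and HSP21 had 9.29 and 9.25 CPM at dexamethasone 6 h, against 0.31 and 0.416 CPM at dexamethasone 1 h (4.70). All 3 genes had the direction they had in mock. CCA1 had 10.5 and 11.5 CPM at dexamethasone 6 h, against 4.23 and 3.88 CPM at dexamethasone 1 h (1.46). In the lists, 10 of 13 touch genes, 16 of 29 rapid stress factors and 12 of 20 jasmonate genes fell and 9 of 16 heat shock genes rose with dexamethasone. LBD29 and RBCS1A, which were called in mock, were not called with dexamethasone (-0.20, adjusted p = 0.439, and 0.44, adjusted p = 0.1), and the test of the difference that follows did not pass for either (adjusted p = 0.619 and 0.547). A test of the difference between the mock and the dexamethasone change, over all 8 libraries, called 2 of 21051 genes (0.0095%) in edgeR, with 1485 at an unadjusted p under 0.05 and 48 called by DESeq2. No member of the 17 lists and no marker gene was among the 2. The list member with the lowest adjusted p was GSTF7 (0.0155), which had 322 and 326 CPM at dexamethasone 6 h, against 139 and 142 CPM at dexamethasone 1 h.

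**Figure D4:**
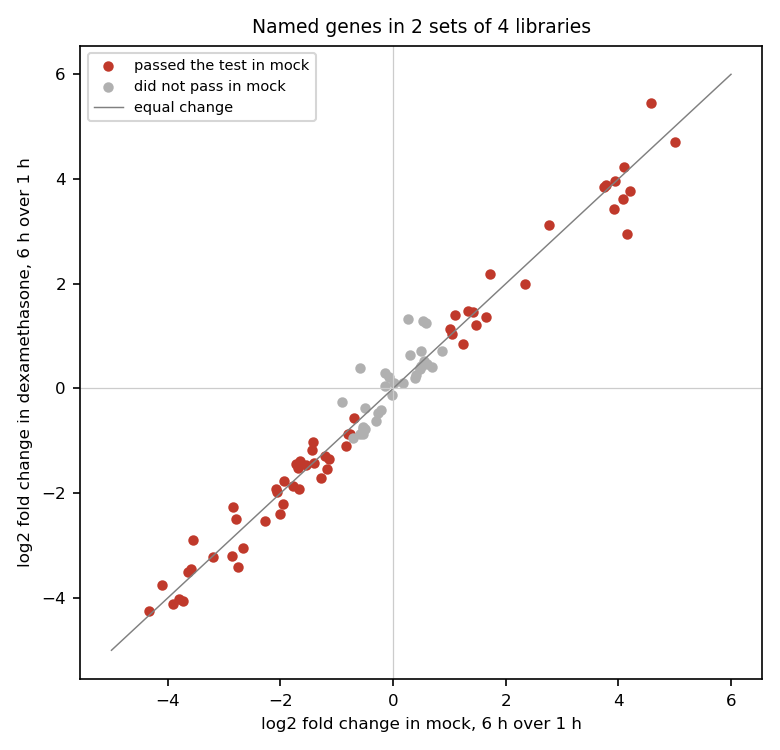
Log2 fold changes of the 90 named genes between 6 h and 1 h, in mock (horizontal) and in dexamethasone (vertical), from separate sets of 4 libraries. Red points passed the test in mock, grey points did not, and the line marks equal change. The red points lie along the line, as for HSP21 at 5.00 in mock and 4.70 with dexamethasone.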

How the data were processed

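RNA from 12 libraries was sequenced single-end after oligo-dT selection. The authors trimmed reads with Trimmomatic (0.36), checked them with FastQC (0.11.5), aligned them to TAIR10 with STAR (2.5.3a) and counted them per Araport11 gene with HTSeq (0.7.2), without strand and at a mapping quality of at least 30. These versions are those of the submitters' processing notes, and the study's methods name other versions of Trimmomatic and STAR. The deposited values are raw read counts. Reads from a gene and an overlapping antisense gene therefore cannot be told apart. Reads that named no single gene were left out. Reads that were not unique made up 14.0% to 15.5% of the mock 6 h and 1 h libraries.

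Counts of the 4 libraries were filtered (filterByExpr), scaled by TMM and tested with edgeR (4.0.16, R 4.3.3), without a replicate term, two-sided, at a Benjamini-Hochberg adjusted p under 0.01 over all tested genes. DESeq2 (1.42.0) was an alternative, as were other filters, scalings, thresholds, fits over more libraries and fits without each library. Printed CPM were scaled by TMM over all 12 libraries. Standard errors came from the test statistic. The procedure was also run on simulated counts, drawn independently for each library. Those counts held no difference between replicate letters, so that run does not bear on the calls made here. Promoters were read from RefSeq TAIR10.1 and searched on both strands in Python. Members and lists were chosen with earlier results of these data known. Named by rule were the 8 largest changes per direction at a mean of at least 50 reads, up to 4 members per list by smallest p, and 14 fixed genes, 90 in all. Other named genes were chosen after their values were seen. The replicates are biological replicates per the labels.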

Additional observations from a re-analysis of the deposited data

Results flagged for a closer look

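The change between 6 h and 1 h differed between mock and dexamethasone in 2 genes, by a test of the difference in edgeR over 8 libraries. CYP71A12, a P450 enzyme of indolic defence compounds, had 14.1 and 12.8 CPM at mock 6 h, against 24.5 and 21.6 CPM at mock 1 h, and it had 16.2 and 17.9 CPM at dexamethasone 6 h, against 2.86 and 2.63 CPM at dexamethasone 1 h. The difference of the log2 changes, mock minus dexamethasone, was -3.42 (SE 0.17, adjusted p = 0.00143), with a fall of 0.75 in mock (log2 fold change -0.75) and a rise of 2.66 with dexamethasone. TBL41, of a family of cell wall acetyltransferases, had 2.34 and 2.597 CPM at mock 6 h, against 10.6 and 10.8 CPM at mock 1 h, and it had 6.16 and 6.18 CPM at dexamethasone 6 h, against 2.55 and 2.26 CPM at dexamethasone 1 h. Its difference was -3.48 (SE 0.18, adjusted p = 0.00143), with log2 fold changes of -2.09 in mock and 1.38 with dexamethasone. In both genes the 1 h levels of mock and dexamethasone lay further apart than the 6 h levels. With 2 libraries per group, single libraries could not be examined for lying far from the others.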

How the results depend on the processing

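The count of 1504 genes was 2761 with DESeq2, 2431 without a filter on low counts, 2568 in a fit of all 6 mock libraries and 3102 in a fit of all 12, 4043 at an adjusted p under 0.05 and 782 if the change also had to be 1 or more on the log2 scale, up or down. Leaving out 1 library gave 1115 to 4328. None of the 1504 genes changed direction under the alternative fits, and 67% to 100% of them were called. Replicate letters are not stated to mark shared material. A minus B at 6 h and at 1 h correlated at 0.597 over 20548 genes, and with a replicate block 7500 genes were called (3628 rose, 3872 fell), 152 list members against 80, and 80 named genes against 58. The fallen share of calls was 51.6% with the block and 71.9% without it. For dexamethasone, 1088 calls became 3488 with DESeq2, 3099 with the block and 4523 at an adjusted p under 0.05, and for the difference between mock and dexamethasone 2 calls became 48, 11 and 6 in these same alternatives. Named genes called ranged over 49 to 80 across all alternatives. The 49 came from the filter of at least 10 reads in each library. There 81 named genes were tested and none of them lost its call. Signs turned only near 0 or where replicates disagreed: CYCB1;1 and the cell division median were -0.0058 in the fit of 12 libraries, CYCB1;1 was -0.0091 without mock 6 h replicate B, TOC1 was 0.026 when scaled by library sizes alone (chosen after seeing the data), and with 1 library left out RR5 ranged over -0.35 (without mock 6 h replicate A) to 0.68, with -0.04 without mock 1 h replicate B, and CYCB1;1 over -0.0091 to 0.034. In the same scaling RRTF1 was no longer called (adjusted p = 0.0113). Genes with few reads, such as APX2 at 1 h, are limited by depth.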

Other observations

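Gene families outside the lists were examined by symbol, among families with at least 10 tested members, and were chosen after their values were seen. Families of the cell wall had calls in both directions. Of 21 XTH genes, which remodel xyloglucan, 7 fell and none rose, beside 5.27% and 2.05% of all genes. XTH15 had 18.7 and 22.6 CPM at 6 h, against 83.5 and 92.7 CPM at 1 h (-2.06), and XTH19 had 53.4 and 40.3 CPM at 6 h, against 212 and 182 CPM at 1 h (-2.05). Of 25 AGP genes, for arabinogalactan proteins, 8 fell and none rose. AGP2 had 183 and 258 CPM at 6 h, against 677 and 874 CPM at 1 h (-1.79), and AGP15 had 117 and 127 CPM at 6 h, against 339.7 and 347 CPM at 1 h (-1.46). Of 14 EXPA expansins, which loosen walls, 3 rose and none fell, beside the same shares of all genes. Of 10 IRX genes of secondary walls 1 rose and none fell, which is too few calls to give that family a direction. EXPA15 had 68.4 and 74.0 CPM at 6 h, against 24.1 and 27.3 CPM at 1 h (1.495), and EXPA1 had 419.8 and 502 CPM at 6 h, against 171 and 194 CPM at 1 h (1.36).

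Kinase families of calcium and stress signalling had unequal counts of calls. Of 20 CPK calcium-dependent kinases 6 fell, among them CPK28, with 76.2 and 85.4 CPM at 6 h, against 199 and 229 CPM at 1 h (-1.38), and of 13 MAPKKK genes 6 fell, among them MAPKKK16, with 0.703 and 0.598 CPM at 6 h, against 3.96 and 3.16 CPM at 1 h (-2.43). Of 17 MPK genes 4 fell and 1 rose, and of 19 CIPK genes 1 fell and none rose. Over all genes 5.27% fell and 2.05% rose.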
